A study of Mus musculus with 6 samples.

Results

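Paired alternative 3′ splice sites are exons that can begin at either of 2 neighbouring acceptor sites, so that the spliced mRNA gains or loses the stretch between them. Of the 265079 splicing events in the deposited vast-tools table, 12845 were entries for the site numbered 1 of a pair of 2, and these are the events described here. The second site was used for the distance alone, and 6 entries without a partner had none, which left 12839 pairs. In all 12839 the site numbered 1 gave the shorter exon. The percent spliced in (PSI) is an estimate of the share of informative reads that use a site, not a count of reads. It is thus here the estimated use of the downstream acceptor, and the remainder is that of the upstream one.

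The study removed the splicing factor Srsf3 from mouse cardiomyocytes and compared RNA of heart tissue, of mice whose age and sex the labels do not state. The 3 cKO hearts were Srsf3Fl/Fl-βMHC-Cre, with both copies of Srsf3 floxed and a Cre transgene under the Myh7 promoter active in cardiomyocytes in utero. The 3 control hearts were Srsf3Fl/Fl without Cre. The floxed alleles were thus shared by both groups and the Cre transgene was in the cKO hearts alone, while by design other cells of the heart kept Srsf3. The deposited table gives 1 PSI value per group and event with the replicates combined, so no spread between hearts, no n of its own and no test between hearts can be given for a pair. The depth of the libraries is unknown.

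Total Srsf3 RNA did not pass the test between the groups: in the DESeq2 results of the authors' deposited table its log2 fold change, cKO over control, was 0.02 (SE 0.07, adjusted p = 0.935). A total over all transcripts of the gene does not show the floxed part by itself, and the groups are named here by their labels. The hearts carried the cardiomyocyte markers at mean normalized counts from 25584 (Ryr2) to 1.22e+06 (Myh6). By the authors' deposited table, 3 of 6 cardiomyocyte markers were lower in cKO hearts (median log2 fold change of the list -0.37), and 6 of 9 myeloid markers were higher (median 0.59), against 3.31% and 3.78% of all 15929 genes tested in these directions. The same DESeq2 threshold was passed by 0 of 5 fibroblast, 0 of 4 mural and 0 of 2 tested lymphoid markers, of which 0, 1 and 0 had an unadjusted p under 0.05. Of 5 endothelial markers 1 was higher, and of 4 skeletal muscle markers tested 1 was lower. The lymphoid marker Nkg7 was listed at a mean under 1 count. In whole tissue, fewer cells of a type and less RNA per cell cannot be told apart, and the part of these cell types in the differences in PSI was not tested.

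An intron ends in AG. SF1 and the U2AF dimer first recognise the branch point, the polypyrimidine tract and the AG, and the AG used is settled at the second catalytic step, when factors such as SLU7 and PRP18 help to dock the acceptor. In general the first AG downstream of the branch point is favoured, an AG too close to the branch point is skipped, and AGs a few bases apart compete. When the sites lie a single codon apart, the arrangement is called a tandem NAGNAG acceptor, and the mRNAs then differ by the length of 1 codon. SR proteins such as SRSF3 bind exonic enhancers and help U2AF to settle on weak acceptors.

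The coding sequences below show what the choice adds or removes. They are changed, nearly changed and level pairs named further on whose exons could be found in the annotation, with sites 3 to 54 nt apart. Each line reads 5′ to 3′ along the mRNA of GENCODE M21 (GRCm38). Capitals mark the stretch that is present when the upstream acceptor is used and spliced out when the downstream one is used. Lower case gives the last 12 bases of the exon before and the first 12 bases of the shorter exon. The coordinates are those of the capitals.
Whrn (chr4:63416591-63416593, minus strand): cccagactcgcaCAGcctccacactct
Synrg (chr11:83977080-83977082, plus strand): gaccccctcaagCAGgcctgattccaa
Rbm33 (chr5:28408252-28408254, plus strand): ttgtctggagggCAGggaggagagagc
Prdm16 (chr4:154337728-154337730, minus strand): tcccatctacagCAGggtagaaaagcg
Scyl2 (chr10:89645555-89645557, minus strand): tctggaagtcagCAGattgataaggtc
Tmem44 (chr16:30549458-30549461, minus strand): tgcccacacgctGCAGgtgctgttatca
Pknox1 (chr17:31599515-31599520, plus strand): cagaactcacagCTGCAGttgcagttgaac
Bclaf1 (chr10:20322963-20322968, plus strand): gaagagatacagTTCTAGgtctcgttccag
Sun2 (chr15:79735920-79735925, minus strand): cgtcctaaccagGTCCAGgcacttctcgct
Srrt (chr5:137296308-137296319, minus strand): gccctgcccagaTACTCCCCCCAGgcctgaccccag
Tsc1 (chr2:28678952-28678966, plus strand): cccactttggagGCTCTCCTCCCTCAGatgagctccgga
Chd3 (chr11:69361225-69361242, minus strand): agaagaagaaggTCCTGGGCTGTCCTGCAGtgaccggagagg
Mdm1 (chr10:118150789-118150821, plus strand): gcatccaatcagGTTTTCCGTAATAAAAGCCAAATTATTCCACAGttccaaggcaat
Epb41l3 (chr17:69262126-69262179, plus strand): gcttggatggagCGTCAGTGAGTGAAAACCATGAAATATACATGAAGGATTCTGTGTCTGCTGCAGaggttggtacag

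Every stretch printed ends in AG, the last bases of the intron when the downstream acceptor is used. In Tsc1 that AG follows a run of mostly C and T, so the letters before the downstream acceptor lie inside the longer exon. Among the 1862 pairs whose 2 exon lengths were both found in annotated transcripts of the same gene, 1849 stretches (99.3%) ended in AG. Of the 13 that did not, 4 were pairs 1 nt apart.

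The 12839 pairs lay in 6214 genes, of which 3173 had more than 1 pair, with up to 23 in a gene, and 4 pairs overlapped another. Pairs of a gene share its RNA, and none is a replicate of a condition. The sites were 1 to 496 nt apart, with a median distance of 20 nt. Use was mostly one-sided. The mean PSI of the 2 groups was under 10% in 7198 pairs (56.1%), where the upstream acceptor was dominant, and over 90% in 4276 (33.3%), where the downstream one was. The remaining 1365 (10.6%), from 10 to 90%, are called intermediate here, against 7.65% of all events of the series and 10.2% of the 9261 paired alternative 5′ splice sites.

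Which acceptor was dominant depended on the distance, with the same order of classes in cKO and in control hearts. At 4 to 12 nt the upstream acceptor held over 90% of use in 88.2% of 3136 pairs, and the median downstream PSI was 1.20% in cKO and 1.47% in control hearts. At 13 to 30 nt the downstream acceptor held over 90% in 62.8% of 2798 pairs, and the median PSI was 97.7% in cKO and 97.3% in control hearts. At 31 to 100 nt the upstream acceptor was dominant in 56.1% of 3360 pairs and the downstream one in 35.7%. The median downstream PSI there was 4.39% in cKO and 4.59% in control hearts. From over 100 to 300 nt the downstream acceptor was dominant in 59.2% of 1313 pairs and the upstream one in 34.8%. The medians there were 97.2% in cKO and 97.0% in control hearts. In these 2 classes the median shows only which side held the majority. Over 300 nt the medians were 98.9% in cKO and 98.8% in control hearts over 214 pairs. The 439 pairs 1 to 2 nt apart had medians of 1.34% in cKO and 1.52% in control hearts, but joined unlike distances. At 1 nt (73 pairs) the medians were 55.6% in cKO and 52.3% in control hearts, and at 2 nt (366) they were 1.08% in cKO and 1.27% in control hearts.

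The turn from upstream to downstream took place within a few bases. At 10 nt the upstream acceptor held over 90% of use in 85.7% of 112 pairs. At 11 nt the upstream acceptor was dominant in 64.7% and the downstream one in 32.4% of 102 pairs, and at 12 nt in 55.0% and 32.2% of 149. At 13 nt the downstream acceptor was dominant in 56.9% of 116 pairs, and the highest share between 1 and 60 nt, 77.7% of 112 pairs, came at 23 nt. From 35 to 60 nt the upstream acceptor was dominant in 42.6% of pairs (at 41 nt, where the downstream one was dominant in 51.5% of 68) to 71.7% (at 46 nt, 53 pairs).

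**Figure D1:**
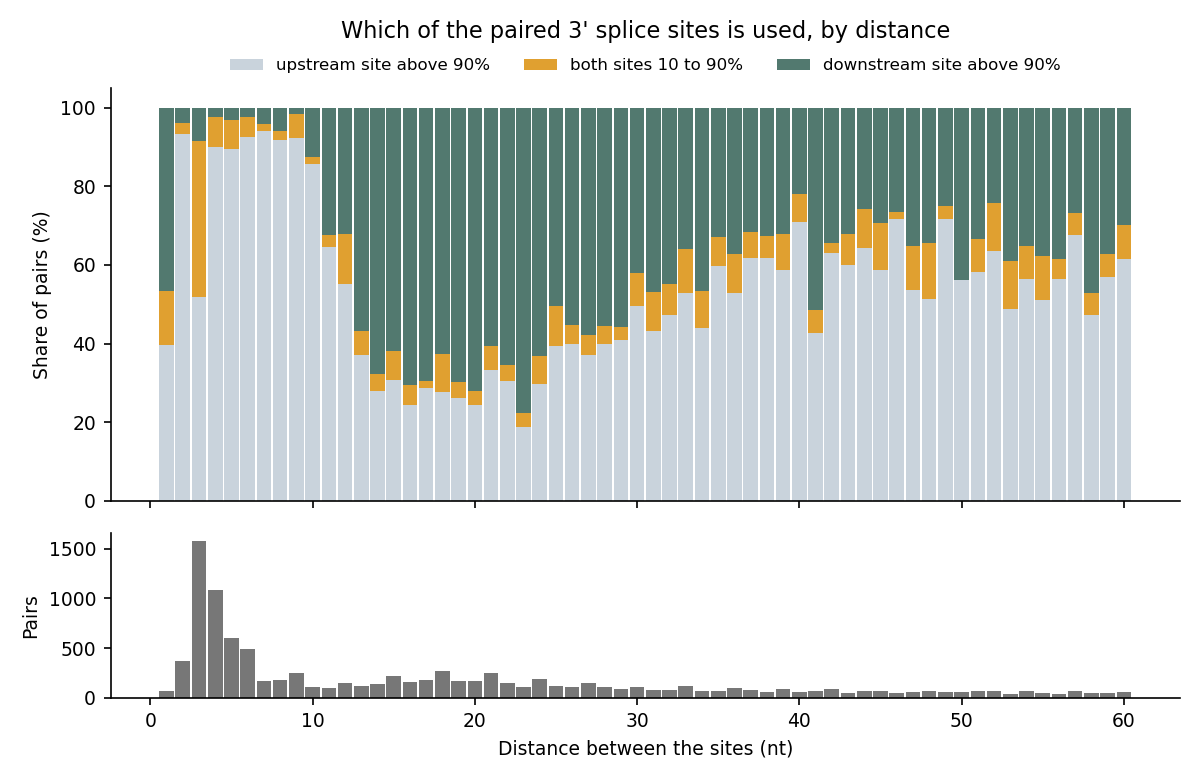
Share of pairs (percent, y axis) in which the upstream acceptor, the downstream acceptor or neither held over 90% of use, by the distance between the sites in nt (x axis). The upstream share is 85.7% at 10 nt, the downstream share is 56.9% at 13 nt and 77.7% at 23 nt, and neither site dominates in 39.6% of pairs at 3 nt.

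Sites 3 nt apart stood out from this order by their mixed use. Of 1579 such pairs, 626 (39.6%) were intermediate, against 6.25% at 4 to 12 nt, 5.68% at 13 to 30 nt, 8.15% at 31 to 100 nt, 6.02% at over 100 to 300 nt and 5.14% over 300 nt. Their median PSI was 8.47% in cKO and 8.43% in control hearts, with the upper quartile at 40.1% in cKO and 41.9% in control hearts. Neighbouring distances did not share this: 2.73% of pairs 2 nt apart and 7.49% of pairs 4 nt apart were intermediate.

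**Figure D2:**
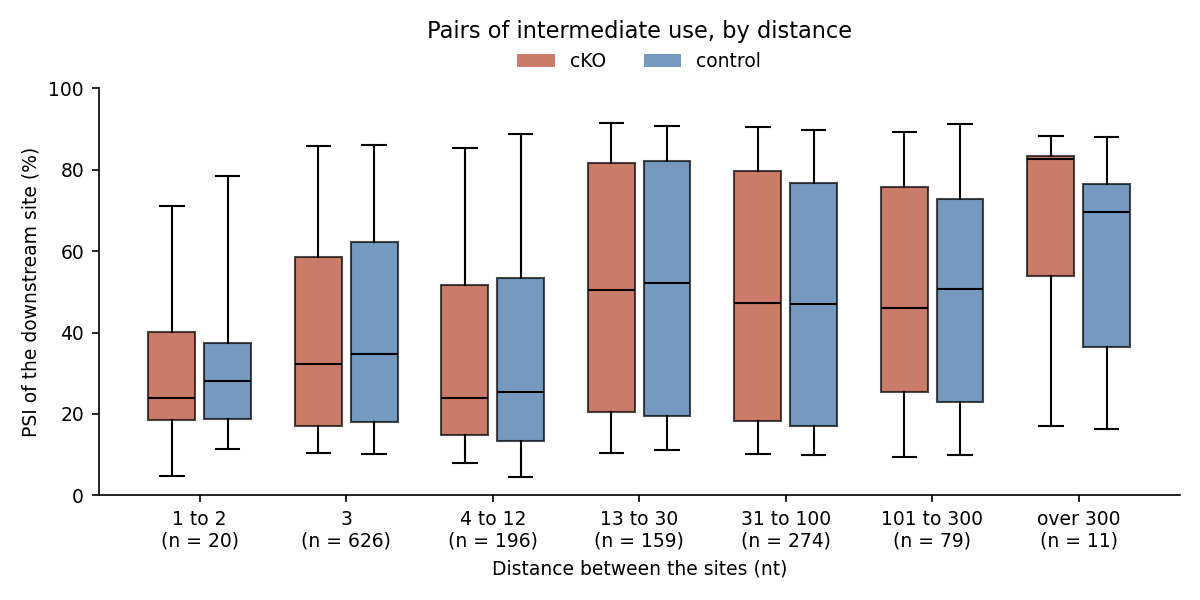
Downstream PSI (percent, y axis) of the intermediate pairs in cKO and control hearts, by distance class in nt (x axis). The box holds the quartiles and the line is the median. Whiskers run from the 5th to the 95th percentile of pairs, not of hearts. At 13 to 30 nt (159 pairs) the medians were 50.4% in cKO and 52.2% in control hearts. The medians lay furthest apart over 300 nt (11 pairs), at 82.5% in cKO and 69.7% in control hearts.

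A distance that is a multiple of 3 keeps the reading frame where the stretch is coding. It was found for 5489 pairs (42.8%) and for 921 of the 1365 intermediate pairs (67.5%), mostly through the 626 at 3 nt. Without the 3 nt pairs, 39.9% of 739 intermediate pairs had such a distance (exact 95% binomial interval 36.4 to 43.6%), against 34.4% of 10521 pairs with a dominant site (33.5 to 35.3%). The gap was widest at 13 to 30 nt, where 54.7% of intermediate pairs (46.6 to 62.6%) and 41.5% of the others (39.6 to 43.4%) had one. At 4 to 12 nt the shares were 30.1% and 28.3%, at 31 to 100 nt 40.9% and 38.0%, and at over 100 to 300 nt 40.5% and 35.6%, with intervals that overlap. The intervals cover counting error only.

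**Figure D3:**
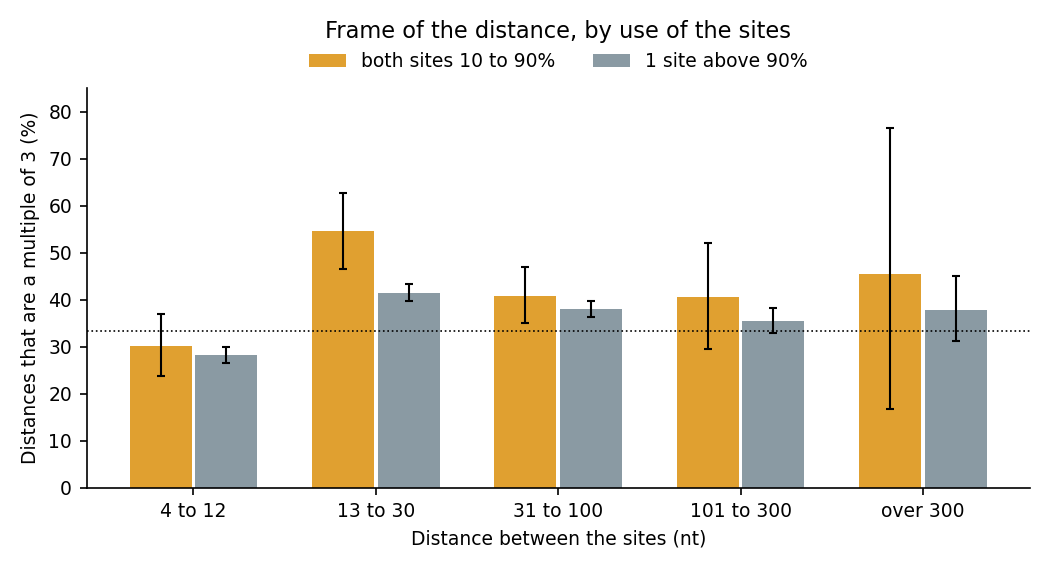
Share of pairs whose distance is a multiple of 3 (percent, y axis) for intermediate pairs and for pairs with a dominant site, by distance class in nt (x axis), with exact 95% binomial intervals; the dotted line marks 1 in 3. At 13 to 30 nt the intermediate pairs reach 54.7%, against 41.5% for the others.

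The share of multiples of 3 went with the annotated position of the stretch in the mRNA. That position was read from a transcript with the longer exon, a protein-coding one where there was one. Where its coding sequence ends can itself depend on the frame, so position and frame are not independent, and the part of this was not tested. Of the 1353 annotated pairs inside a coding sequence, 58.9% kept the frame (56.2 to 61.5%), and 44.1% of the 995 that were not 3 nt apart. In 5′ UTRs the share was 43.3% of 215 pairs (36.5 to 50.2%), and 29.1% of the 172 that were not 3 nt apart. In 3′ UTRs it was 16.1% of 31 pairs, at the edge of a coding sequence 25.7% of 109, and in non-coding transcripts 29.9% of 154. Of the 475 intermediate coding pairs, 80.8% kept the frame. The annotated pairs are not a fair draw of all: 34.2% of them were intermediate, against 6.63% of the pairs that were not matched.

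The end of the stretch was read in the annotated pairs alone. Among those 3 nt apart, use went with the base before the AG of the stretch. The 300 pairs whose stretch was CAG had a median downstream PSI of 37.6% in cKO and 41.8% in control hearts. Of these 80.7% were intermediate, against 57.5% with TAG, 48.4% with AAG and 13.3% with GAG. All 4 groups hold annotated pairs, which are more often intermediate than the others. The share over all 1579 pairs 3 nt apart, annotated or not, was 39.6% and is not a like background. With TAG (40 pairs) the medians were 20.7% in cKO and 26.8% in control hearts, with AAG (62) 11.1% in cKO and 12.04% in control hearts, and with GAG (15) 1.52% in cKO and 2.01% in control hearts. Here the letters of the stretch are the ones next to the downstream cut, and the order of the 4 endings was the same in both groups. At 13 to 30 nt, stretches ending in AAG (27) likewise had a lower downstream PSI, 23.3% in cKO and 22.7% in control hearts, than those ending in CAG (274, with 81.1% in cKO and 82.5% in control hearts) or TAG (71, with 97.0% in cKO and 96.8% in control hearts). Motifs in the intron before the upstream acceptor were not read.

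Between the groups most pairs differed little. Over all pairs the median difference in PSI, cKO minus control, was -0.02 points, and among intermediate pairs the median absolute difference was 5.24 points, with 653 of 1365 (47.8%) under 5 points. A pair was counted as changed where the authors' deposited table gives a minimum change, the size exceeded with probability 0.95, of at least 10 points. By this measure 33 pairs in 32 genes changed (0.257%), 18 with higher downstream use in cKO hearts (0.14%) and 15 with lower (0.117%). Over all events of the series 610 (0.23%) changed, 0.0792% higher and 0.151% lower, and among paired 5′ splice sites 23 (0.248%). Among intermediate pairs 32 (2.34%) changed, against 2.83% of all intermediate events and 2.22% of intermediate paired 5′ sites. The overall share of changed pairs is thus near the background.

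**Figure D4:**
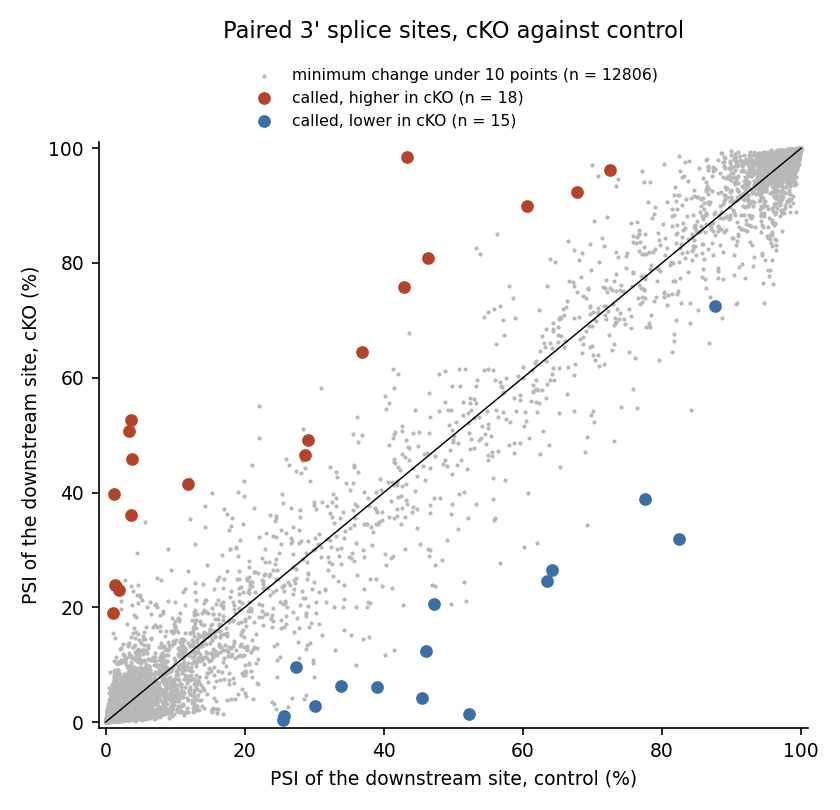
Downstream PSI in cKO hearts against control hearts (percent) for all 12839 pairs, with the 33 changed pairs marked by direction. The marked pairs, 18 higher and 15 lower in cKO, lie 15.2 to 55.1 points from equal use.

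A large difference alone did not make a call. In 407 pairs the 2 values were at least 10 points apart, and in 318 of these the minimum change was under 5 points in the authors' deposited table. Near the ends of the scale the values of cKO hearts lay closer to 0 and 100%. Of 6981 pairs under 10% in both groups the median PSI was 1.06% in cKO and 1.2425% in control hearts, and 66.2% were lower in cKO. Of 4164 pairs over 90% in both, the median distance from 100% was 0.887 points in cKO and 1.05 points in control hearts, and 70.0% were higher in cKO. Exons included to within 3 points of 100% in cKO and in control hearts behaved alike: over 7508 genes the median log2 ratio of their distance from full inclusion, control over cKO, was 0.39. A difference under 1 point in a class median, as in the class values above, goes with this shift, whose part was not tested.

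Among the intermediate pairs the median difference went with frame and distance as follows. At a multiple of 3 the median PSI was 37.3% in cKO and 39.8% in control hearts, with a median difference of -0.58 points and 46.6% of 921 pairs higher in cKO. At other distances it was 29.2% in cKO and 27.9% in control hearts, with a median difference of 0.93 points and 55.6% of 444 pairs higher. By distance, the median differences were 0.98 points at 1 to 2 nt (20 pairs), -0.57 at 3 nt (626), -0.76 at 4 to 12 nt (196), 0.21 at 13 to 30 nt (159), 0.97 at 31 to 100 nt (274) and 0.98 at over 100 to 300 nt (79). Over 300 nt it was 11.3 points over 11 pairs, of which 8 were higher in cKO and none changed by the authors' measure. At 31 to 100 nt, 62.3% of 162 pairs that were not a multiple of 3 apart were higher in cKO (median difference 1.60 points), against 47.3% of 112 multiples of 3 (median -0.56). At 4 to 12 nt the order was the other way, with 44.5% of 137 pairs higher, against 50.8% of 59 multiples of 3. These shares are over pairs and carry no test between hearts.

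The 33 changed pairs had no shared direction, and in 17 of them the distance was a multiple of 3. They fell in every distance class up to 300 nt: 1 at 1 to 2 nt, 9 at 3 nt, 9 at 4 to 12 nt, 2 at 13 to 30 nt, 8 at 31 to 100 nt and 4 at over 100 to 300 nt. In 8 of them the downstream acceptor was used under 5% in control hearts and in 5 under 5% in cKO hearts.

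At 3 nt, 5 of the 9 changed pairs were higher in cKO. The largest difference of all was in the 5′ UTR of Cyp4f16, a cytochrome P450, at chr17:32673940-32673943 (mm9), with 98.5% downstream use in cKO and 43.4% in control hearts and a minimum change of 38 points in the authors' deposited table. Dtnb, which encodes β-dystrobrevin of the dystrophin complex, used the downstream acceptor at 50.7% in cKO and 3.30% in control hearts. The other pairs with higher use were those of Tle4, a Groucho-type corepressor (80.8% in cKO, 46.4% in control), Igf1r, the receptor of insulin-like growth factor I (92.4% in cKO, 67.8% in control), and Ncln, an endoplasmic reticulum membrane protein (46.5% in cKO, 28.7% in control). In each of these cKO hearts used the shorter exon more.

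Lower downstream use at 3 nt, that is more mRNA with the extra 3 nt, was found in 4 genes. Whrn, the scaffold protein whirlin, had 24.6% in cKO and 63.5% in control hearts, and the stretch kept more often is the CAG printed above. Synrg, a partner of the clathrin adaptor AP-1, had 38.9% in cKO and 77.6% in control hearts at its CAG. Zscan2, a zinc finger protein, had 26.5% in cKO and 64.1% in control hearts in its 5′ UTR. Sorbs2, an adaptor protein of Z-discs and intercalated discs, had 72.4% in cKO and 87.6% in control hearts, and with a mean of 28092 normalized counts it was the most abundant gene with a changed pair.

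Sites 4 nt apart, which shift the frame, gave 8 changed pairs. These were 0.740% of the 1081 pairs at this distance, against 0.570% of 1579 at 3 nt and 0.257% of all pairs. They were 9.88% of the 81 intermediate ones at this distance. The share of intermediate pairs was 1.44% at 3 nt, 2.34% over all distances and 2.83% over all intermediate events. This distance was singled out after its values were seen. In 6 of the 8 one group was under 5%, and such a pair is intermediate only through its value in the other group. The shares of intermediate pairs thus depend on the differences themselves. Synrg had a second changed pair here, at chr11:83792422-83792426 (mm9), with 1.48% in cKO and 52.2% in control hearts and a minimum change of 32 points in the authors' deposited table. Phrf1, a PHD and RING finger protein, was at 39.7% in cKO and 1.17% in control hearts, and Pus10, a pseudouridine synthase, at 45.8% in cKO and 3.85% in control hearts. Zfp810, a zinc finger protein, was at 4.17% in cKO and 45.5% in control hearts, and Dock6, a guanine nucleotide exchange factor, at 0.414% in cKO and 25.5% in control hearts. Rad9, of the DNA damage checkpoint clamp, was at 1.09% in cKO and 25.7% in control hearts, and St6galnac6, a sialyltransferase, at 9.68% in cKO and 27.4% in control hearts. Tmem44, a membrane protein, was at 75.8% in cKO and 42.9% in control hearts, which removes the GCAG shown above more often. The 4 nt pairs thus held 3 higher and 5 lower.

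**Figure D5:**
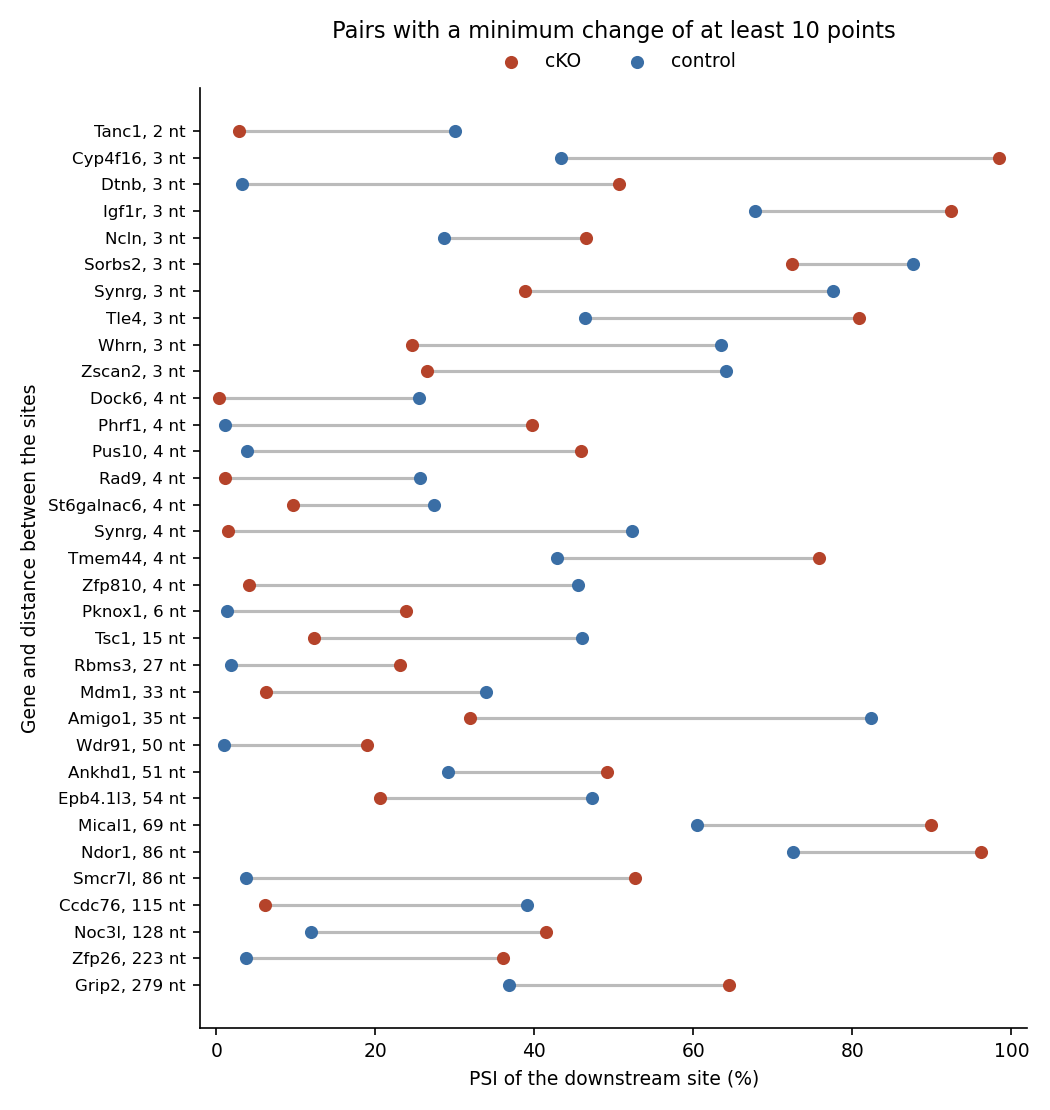
Downstream PSI (percent, x axis) of the 33 changed pairs in cKO and control hearts, 1 row per pair, ordered by the distance between the sites. The lines join the 2 values of a pair, from 0.414% in cKO and 25.5% in control hearts for Dock6 to 98.5% in cKO and 43.4% in control hearts for Cyp4f16.

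From 2 to 30 nt, 4 other pairs changed. Tanc1, a scaffold protein, was at 2.85% in cKO and 30.1% in control hearts with sites 2 nt apart. Pknox1, a homeobox partner of PBX proteins, was at 23.9% in cKO and 1.40% in control hearts at 6 nt, so that the 6 nt shown above were left out more often. Tsc1, which with Tsc2 restrains mTORC1, was at 12.3% in cKO and 46.0% in control hearts at 15 nt, and the longer exon with the in-frame stretch above was the more frequent in cKO. Rbms3, an RNA-binding protein, was at 23.1% in cKO and 1.86% in control hearts at 27 nt.

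At 31 to 100 nt, 5 of 8 changed pairs were higher in cKO. Smcr7l, whose current symbol is Mief1 and whose product recruits the fission GTPase Drp1 to mitochondria, was at 52.7% in cKO and 3.69% in control hearts with sites 86 nt apart (chr15:80078671-80078757, mm9), and its minimum change was 33 points in the authors' deposited table. Ndor1, a flavoprotein of cytosolic iron-sulphur cluster assembly, was at 96.1% in cKO and 72.5% in control hearts, Mical1, an actin-oxidising enzyme, at 89.9% in cKO and 60.5% in control hearts, Ankhd1, an ankyrin repeat protein, at 49.1% in cKO and 29.1% in control hearts, and Wdr91, an endosomal protein, at 19.0% in cKO and 1.03% in control hearts. Amigo1, an adhesion molecule, was lower, at 32.0% in cKO and 82.4% in control hearts. Epb4.1l3 (Epb41l3), a membrane skeleton protein, was at 20.6% in cKO and 47.3% in control hearts, and Mdm1, a microtubule-binding protein, at 6.32% in cKO and 33.9% in control hearts. In these 2 genes the in-frame stretches of 54 and 33 nt printed above were therefore included more in cKO hearts.

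From over 100 to 300 nt, Grip2, a PDZ scaffold, was at 64.5% in cKO and 36.9% in control hearts, Zfp26, a zinc finger protein, at 36.1% in cKO and 3.70% in control hearts, and Noc3l, a nucleolar protein, at 41.5% in cKO and 11.9% in control hearts. Ccdc76, a tRNA methyltransferase now named Trmt13, was lower, at 6.11% in cKO and 39.1% in control hearts. For these 4 pairs the choice moves 115 to 279 nt of exon.

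The share given next counts pairs, which lay in 32 genes, and its background counts all genes tested, with or without a pair. In the authors' deposited table, the 33 pairs included 4 (12.1%) in a gene whose RNA level differed at an adjusted p under 0.05, against 7.09% of all genes tested. Their log2 fold changes, cKO over control, were 0.31 for Smcr7l (SE 0.10, adjusted p = 0.0288), -0.59 for Whrn (SE 0.18, adjusted p = 0.0247), -0.38 for Epb4.1l3 (SE 0.12, adjusted p = 0.0285) and -0.26 for Ankhd1 (SE 0.09, adjusted p = 0.0374), by the authors' DESeq2.

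A threshold of 5 points on the authors' minimum change counts 92 pairs (0.717%), against 0.633% of all events. Of these 49 were higher in cKO (0.382%, against 0.249% of all events) and 43 lower (0.335%, against 0.384%). A threshold of 15 points counts 13 (0.101%, against 0.089%), 7 higher (0.0545%, against 0.0283%) and 6 lower (0.0467%, against 0.0607%). Just under 10 points lay Rbm33 at 21.1% in cKO and 51.8% in control hearts and Prdm16, a transcriptional regulator, at 42.4% in cKO and 12.1% in control hearts, both with a CAG stretch, printed above. Rpl23, a ribosomal protein of the large subunit, was at 95.2% in cKO and 70.7% in control hearts. Sun2, of the bridge between nucleus and cytoskeleton, was at 28.3% in cKO and 48.3% in control hearts at 6 nt, and Bclaf1, a nuclear RNA-processing protein, at 25.1% in cKO and 7.41% in control hearts, also at 6 nt. Prpf6, a component of the tri-snRNP, was at 23.7% in cKO and 47.3% in control hearts with sites 1 nt apart, where reads at either site differ by a single base. Camta1, a transcription factor, was at 75.9% in cKO and 58.1% in control hearts, and Eno3, the muscle enolase, at 77.5% in cKO and 68.4% in control hearts. These 8 pairs are not counted as changed.

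Other pairs of mixed use were nearly level. Scyl2, a clathrin-associated pseudokinase, was at 52.1% in cKO and 52.0% in control hearts at a CAG stretch, Arhgef11, also an exchange factor, at 44.3% in cKO and 44.2% in control hearts, Chd3, a chromatin remodeller, at 53.0% in cKO and 53.0% in control hearts with 18 nt between its sites, and Srrt, an RNA-processing protein, at 13.3% in cKO and 13.2% in control hearts. These had the smallest differences of their distance classes among well-expressed genes and were taken for that. The CAG stretch had no single direction: of the 300 annotated CAG pairs at 3 nt, 4 changed, with 1 higher (Cyp4f16) and 3 lower in cKO (Whrn, Synrg and Zscan2). Srsf3 itself had 1 pair, 291 nt apart, used at 0.788% in cKO and 0.958% in control hearts with a minimum change of 0 in the authors' deposited table.

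In 7 gene lists of splicing, contraction, mitochondria and mRNA decay no pair reached a minimum change of 10 points in the authors' deposited table, against 0.23% of all events. The lists do not hold Smcr7l or Sorbs2, described above. They held 16 pairs of SR protein genes, 25 of hnRNP genes, 14 of muscle splicing regulators, 14 of sarcomere genes, 9 of calcium handling and channel genes, 166 of mitochondrial genes and 39 of mRNA decapping and decay genes. Over so few pairs a count of 0 is not set apart from that share. At 5 points 1 pair was counted, in Myom1, the M-band protein myomesin, at 34.4% in cKO and 69.2% in control hearts with sites 69 nt apart and a minimum change of 6 points in the authors' deposited table.

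Intermediate pairs of these lists, named after their values were seen, show how far values moved without a call. Atp2a2, the calcium pump SERCA2, was at 50.1% in cKO and 36.9% in control hearts. Myh6, the main myosin heavy chain of the adult mouse heart, was at 50.9% in cKO and 49.8% in control hearts. Cox7c, a subunit of cytochrome c oxidase, was at 72.9% in cKO and 84.0% in control hearts, and Mff, a receptor for Drp1, at 62.9% in cKO and 63.3% in control hearts. The 16 intermediate mitochondrial pairs differed by -18.1 to 19.7 points, 6 higher and 10 lower in cKO. Among the 6 of muscle splicing regulators, all with a distance that is a multiple of 3, Celf1 was at 65.8% in cKO and 73.0% in control hearts.

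Factors that recognise acceptors passed the test of RNA level at a share near that of all genes in the authors' deposited table. Of 42 such genes, from U2af1, U2af2, Sf1 and the SF3B subunits to second-step factors, 1 was higher and 1 lower in cKO hearts by the authors' DESeq2 at an adjusted p of 0.05, against 3.78% and 3.31% of all genes. Slu7, which acts in acceptor choice at the second step, had in the authors' deposited table a log2 fold change of 0.28 by DESeq2 (SE 0.09, adjusted p = 0.0246). Hnrnpa1, an RNA-binding protein that in human affects U2AF binding at acceptors, had in the authors' deposited table one of -0.25 by DESeq2 (SE 0.08, adjusted p = 0.0183). The median of the list was 0.04, against -0.00 for all genes tested, with 24 positive and 18 negative values.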

How the data were processed

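Poly(A)-selected RNA of 6 mouse hearts, 3 cKO and 3 control, was sequenced from stranded libraries, per the labels' protocols. Trimmomatic 0.38 and FastQC 0.10.1 for reads, kallisto 0.46.0 and DESeq2 1.24.0 for genes, and 3 build names (mm9, mm10, GRCm38) stand in the submitters' processing notes. Which version of vast-tools was run is not given in the sources used here. Per the file headers, the deposited events table gives PSI as a fraction in each group and, as a score, the minimum change at probability 0.95. Fractions are printed as percentages. The deposited gene table gives the mean signal over libraries (normalized counts), the log2 fold change with its SE, and the p-value with its adjusted form, which the authors made with DESeq2. The tables hold group values, and no value per library was analysed here, so the planned linear model per library gave way to the planned fallback, the authors' minimum change, and medians and shares were described with no test. Depth per sample is unknown.

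The distance is the difference between the mm9 positions of the 2 acceptors. The class of 1 to 2 nt was added after the data were seen. Differences are cKO minus control and equal the deposited estimated change, sign turned, within 0.0001 points. The direction of the gene table was settled from the events, with 634 of 670 genes past the threshold (94.6%) of equal sign. For this, the ratio over 7508 genes given above was read as a ratio of depth, cKO over control, though depth itself is unknown. Event symbols matched directly for 11746 pairs, through an older symbol for 1010 and not for 83. Exon stretches were matched to GENCODE M21 by gene, chromosome, strand and both exon lengths, with no conversion of coordinates; 869 pairs have an open exon end. Pairs named are those whose minimum change reached 10 points, up to 3 more per class at 5 points or above, the 2 most level intermediate pairs per class in genes whose mean was 1000 normalized counts or more, and Srsf3; only some of the last 3 kinds are printed. The pairs, lists and alternatives were chosen with earlier results of these data known. The counting was tested on simulated data. Python 3.11.15, pandas 2.3.3 and scipy 1.17.1 were used.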

Additional observations from a re-analysis of the deposited data

How the results depend on the processing

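No paired analysis was possible because the deposited tables hold 1 value per group, and for the same reason no heart could be left out. With a minimum change of 5 or 15 points in place of 10, the changed pairs numbered 92 or 13, of which 49 or 7 were higher and 43 or 6 lower in cKO. With intermediate pairs alone the median difference in PSI, cKO minus control, moved to 0.98 points at 1 to 2 nt, -0.57 at 3 nt, -0.76 at 4 to 12 nt, 0.21 at 13 to 30 nt, 0.97 at 31 to 100 nt, 0.98 at over 100 to 300 nt and 11.3 over 300 nt, to -0.58 for multiples of 3 and to 0.93 for other distances, and the share of multiples of 3 moved to 67.5%. With 1 event per gene, the one of largest minimum change, the median PSI of cKO and control hearts moved to 1.39% and 1.71% at 4 to 12 nt, 97.1% and 96.4% at 13 to 30 nt, 7.19% and 6.66% at 31 to 100 nt, 96.0% and 95.8% at over 100 to 300 nt, 9.98% and 9.57% for multiples of 3 and 4.73% and 4.91% for other distances, and to 10.1% in control hearts at 3 nt. Of the 42 acceptor factor genes, 0 passed an adjusted p of 0.01 in the authors' DESeq2 results, and 5 had an unadjusted p under 0.05. The 1 event per gene was picked by its minimum change, so those medians do not come from a neutral draw of pairs. The causes of these shifts were not tested. The other 73 values of this kind were recomputed within the limits set for them, but a part of them could hardly move. The deposited estimated change equals the difference, and every pair had a value in both groups. A count of changed pairs with 1 event per gene keeps the changed pair of each gene. These values are no check of the results. The depth behind each pair is unknown.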
